A study of Homo sapiens with 8 samples.

Results

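Transcript levels of 6 cyclin-dependent kinases (CDK1, CDK2, CDK4, CDK6, CDK7 and CDK9), of the phosphatase CDC25A and of the kinases WEE1 and PKMYT1 were examined in RNA-seq of B-cell lymphoma cells treated with chidamide. The 9 genes were taken by symbol from a table of 63967 gene labels, and the rule that lists them uses no measured value. The genes themselves were chosen with earlier results of these data known. All 9 were among the 18143 labels for which values could be placed and among the 10710 genes tested. Raji is a rituximab-sensitive Burkitt lymphoma line, and Raji-4RH is its rituximab-resistant derivative, obtained by repeated exposure to rituximab. The sources used here do not say whether Raji-4RH is 1 clone. Each line received chidamide, an HDAC inhibitor, at 3 μM or its vehicle DMSO for 24 h, after which the cells were collected by flow sorting, with no gate described. The study's own RNA-seq methods do not mention sorting. Each of the 4 groups (Raji-4RH DMSO, Raji-4RH chidamide, Raji DMSO and Raji chidamide) had 2 libraries, fewer than the replicate number stated with the study's RNA-seq, and no label says that these came from separate cultures, so the p-values measure only the spread between libraries, which may be technical.

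CDKs are kinases that work only when bound to a cyclin. CDK4 and CDK6 act with D-type cyclins in G1, CDK2 with cyclins E and A around the entry into and passage through S phase, and CDK1 with cyclins A and B up to mitosis. WEE1 and PKMYT1 hold CDK1 (and WEE1 also CDK2) inactive by phosphorylating residues near the ATP site, CDC25 phosphatases such as CDC25A remove these phosphates, CDK7 is the catalytic subunit of the CDK-activating kinase (CAK) and of TFIIH, and CDK9 is the kinase of P-TEFb, which releases paused RNA polymerase II.

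Levels are given as FPKM, the reads of a gene divided by its length and by the library total. For the 9 genes that length equals all annotated exons joined. Which transcripts were expressed is not known here, so levels can be compared only roughly between genes. The libraries held between 13991697 reads (Raji-4RH chidamide replicate 1) and 21193441 reads (Raji-4RH DMSO replicate 2). The lowest read number behind any value of the 9 genes was 68, for CDC25A in Raji-4RH chidamide replicate 1. Values and labels do not share a row throughout the deposited table. The values of CDK2, CDK6 and PKMYT1 lay in the row of the label, those of CDK4, CDK7 and CDK9 1 row below it, those of CDC25A and WEE1 3 rows below it and those of CDK1 4 rows below it. Among the shifted rows, 164 of 174 labels of widely expressed gene families (94.3%) had at least 5 FPKM after placing, against 68 and 63 of 174 when placed 1 row up or down. All 12 B cell markers examined were at 1 FPKM or more in every group. The summed level of 13 placed markers of other cell types in Raji-4RH was 3.14 to 3.82 FPKM with DMSO and 18.3 to 18.5 FPKM with chidamide, and in Raji 2.58 to 2.90 FPKM and 11.4 to 13.2 FPKM. Among them CD3D, CD3G, CD2, CD14, MPO, GNLY, PPBP and EPCAM were under 1 FPKM in all 4 groups. The other 5 (CD3E, NKG7, LYZ, CSF1R and COL1A1) were called higher with chidamide in Raji-4RH, and all but LYZ also in Raji. In Raji-4RH, NKG7 went from 1.78 to 5.33 FPKM, LYZ from 0.14 to 4.10, CD3E from 0.72 to 3.52 and CSF1R from 0.11 to 3.01, and in Raji CSF1R went from 0.068 to 4.85 and COL1A1 from 0.16 to 2.21. The part of these transcripts in the results on the 9 genes was not tested.

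The promoters of CDK1 and CDC25A, which both fell with chidamide, are shown beside that of CDK9, which did not fall, because promoters of cell cycle genes often hold the CCAAT box, the cell cycle homology region (CHR) and E2F sites. The sequences are from RefSeq (GRCh38.p14), run from 250 bases before to 50 bases after the transcription start, and are written 5′ to 3′ on the strand of the gene. Capitals mark CCAAT boxes (CCAAT, or ATTGG where the match is on the opposite strand), CHR matches (TTTGAA or TTCAAA) and E2F matches (TTTNNCGC, each N being C or G).
CDK1, chr10:60778228-60778527, plus strand: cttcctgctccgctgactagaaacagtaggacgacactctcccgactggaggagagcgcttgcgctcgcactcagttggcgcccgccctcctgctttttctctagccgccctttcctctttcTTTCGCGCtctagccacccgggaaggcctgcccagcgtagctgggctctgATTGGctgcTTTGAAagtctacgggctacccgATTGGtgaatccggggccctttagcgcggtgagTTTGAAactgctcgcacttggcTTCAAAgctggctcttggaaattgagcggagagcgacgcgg
CDC25A, chr3:48188368-48188667, minus strand: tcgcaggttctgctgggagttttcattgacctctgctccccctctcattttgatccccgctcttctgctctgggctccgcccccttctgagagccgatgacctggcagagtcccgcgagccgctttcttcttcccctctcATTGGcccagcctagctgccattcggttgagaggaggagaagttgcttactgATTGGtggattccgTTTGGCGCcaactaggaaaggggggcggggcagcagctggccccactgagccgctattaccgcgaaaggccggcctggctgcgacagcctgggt
CDK9, chr9:127785784-127786083, plus strand: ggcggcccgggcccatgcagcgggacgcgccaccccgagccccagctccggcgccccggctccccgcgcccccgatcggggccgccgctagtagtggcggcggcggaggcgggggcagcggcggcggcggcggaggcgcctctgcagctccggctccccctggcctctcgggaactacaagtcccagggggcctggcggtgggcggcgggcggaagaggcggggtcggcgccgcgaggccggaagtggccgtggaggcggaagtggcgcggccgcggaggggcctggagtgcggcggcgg
The CDK1 promoter shown held an E2F match 128 bases before the start, CCAAT boxes on the opposite strand 78 and 46 bases before it, and CHR matches 69 and 13 bases before it. A further CHR match lay on the opposite strand 9 bases after the start. A second CDK1 window, chr10:60778081-60778380, is the one whose transcription start is the annotated first base of the gene. In that window the same E2F match lies 19 bases after the start, with a CCAAT box 150 and a CHR match 161 bases before it. The CDC25A promoter held an E2F match 44 bases before the start and CCAAT boxes on the opposite strand 110 and 58 bases before it, with no CHR match. None of these matches overlapped another. The CDK9 promoter held no match to the 3 motifs. Of 35116 promoters of this length in RefSeq, searched on both strands, 34.6% held a CCAAT box, 15.2% a CHR match and 3.31% an E2F match. Of the 9 genes, 6 matched the promoter table, and CDK2, WEE1 and PKMYT1 did not. The promoter windows of CDK4, CDK6 and CDK7 had no match to the 3 motifs. These genes also fell with chidamide, CDK4 in both lines, CDK6 in Raji and CDK7 in Raji-4RH. A match is a run of letters, and no binding was measured here.

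CDC25A, the phosphatase that activates CDK2 and CDK1, fell further in Raji-4RH than any other of the 9 genes. The gene lies at chr3:48157146-48188402 on the minus strand (GRCh38, GENCODE v29). In Raji-4RH it stood at 12.99 and 13.4 FPKM in the DMSO libraries and at 1.18 and 1.31 FPKM in the chidamide libraries, which rest on 68 and 99 reads. In Raji it stood at 28.3 and 28.6 FPKM with DMSO and at 11.6 and 12.4 FPKM with chidamide. The chidamide libraries were below the DMSO libraries in both lines, and Raji cells with chidamide remained close to the level of Raji-4RH cells without it. In bulk RNA, fewer cells that express a gene and less RNA per cell cannot be told apart, which holds for all 9 genes. On the log2(FPKM + 1) scale the change was -2.66 in Raji-4RH (standard error 0.057, adjusted p = 2.2e-08 in limma) and -1.18 in Raji (adjusted p = 1.3e-06). This scale understates the change of a gene that ends near 1 FPKM, and the ratio of mean FPKM was 10.6-fold lower in Raji-4RH and 2.37-fold lower in Raji. Ordered by log2 fold change, CDC25A was number 6 from the bottom of the 10710 genes in Raji-4RH and number 35 in Raji.

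PKMYT1, the membrane-bound inhibitory kinase of CDK1 (chr16:2968024-2980539, minus strand), fell in both lines. The 2 Raji-4RH libraries with DMSO held 27.3 and 29.6 FPKM, and those with chidamide 3.85 and 4.44 FPKM. Raji cells held 32.5 and 26.8 FPKM with DMSO and 14.3 and 14.2 FPKM with chidamide. The DMSO libraries of the 2 lines overlapped, whereas with chidamide both Raji-4RH libraries were below both Raji libraries. The log2 fold change with chidamide was -2.52 in Raji-4RH (adjusted p = 1.4e-07, limma) and -0.9996 in Raji (adjusted p = 4.9e-05), and the mean was 6.87-fold lower in Raji-4RH and 2.08-fold lower in Raji. PKMYT1 shares 24.5% of its exon bases with PAQR4 and 7.15% with KREMEN2 on the opposite strand, and the strand setting of the counting is not given, so reads in the shared bases cannot be assigned to 1 gene. PAQR4 fell from 17.9 to 7.61 FPKM and KREMEN2 from 35.2 to 15.7 FPKM in Raji-4RH, a smaller ratio than that of PKMYT1.

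WEE1 is the nuclear inhibitory kinase of CDK1 and CDK2 (chr11:9573681-9593457, plus strand). On the log2(FPKM + 1) scale its response differed most between the lines among the 9 genes. Under other settings the difference between the lines went as low as -2.15 for CDC25A and -2.01 for WEE1. Their order therefore depended on the processing. In Raji-4RH WEE1 went from 18.6 and 18.3 FPKM with DMSO to 3.91 and 4.45 FPKM with chidamide. In Raji it was at 16.5 and 16.4 FPKM with DMSO and at 15.1 and 14.6 FPKM with chidamide. The 6 libraries other than Raji-4RH chidamide thus lay between 14.6 and 18.6 FPKM. WEE1 fell by 1.91 on the log2 scale in Raji-4RH (adjusted p = 7.2e-08, limma), a 4.41-fold lower mean. In Raji its log2 fold change was -0.15, with a 95% interval from -0.29 to -0.0042 and an adjusted p of 0.0715, which did not pass the threshold of 0.05. That value passed it with median-centred libraries (adjusted p = 0.0176), in voom on the recovered reads (0.0371), in a fit of the Raji libraries alone (0.0303) and without either Raji-4RH chidamide library (0.0189 and 0.0191).

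**Figure D1:**
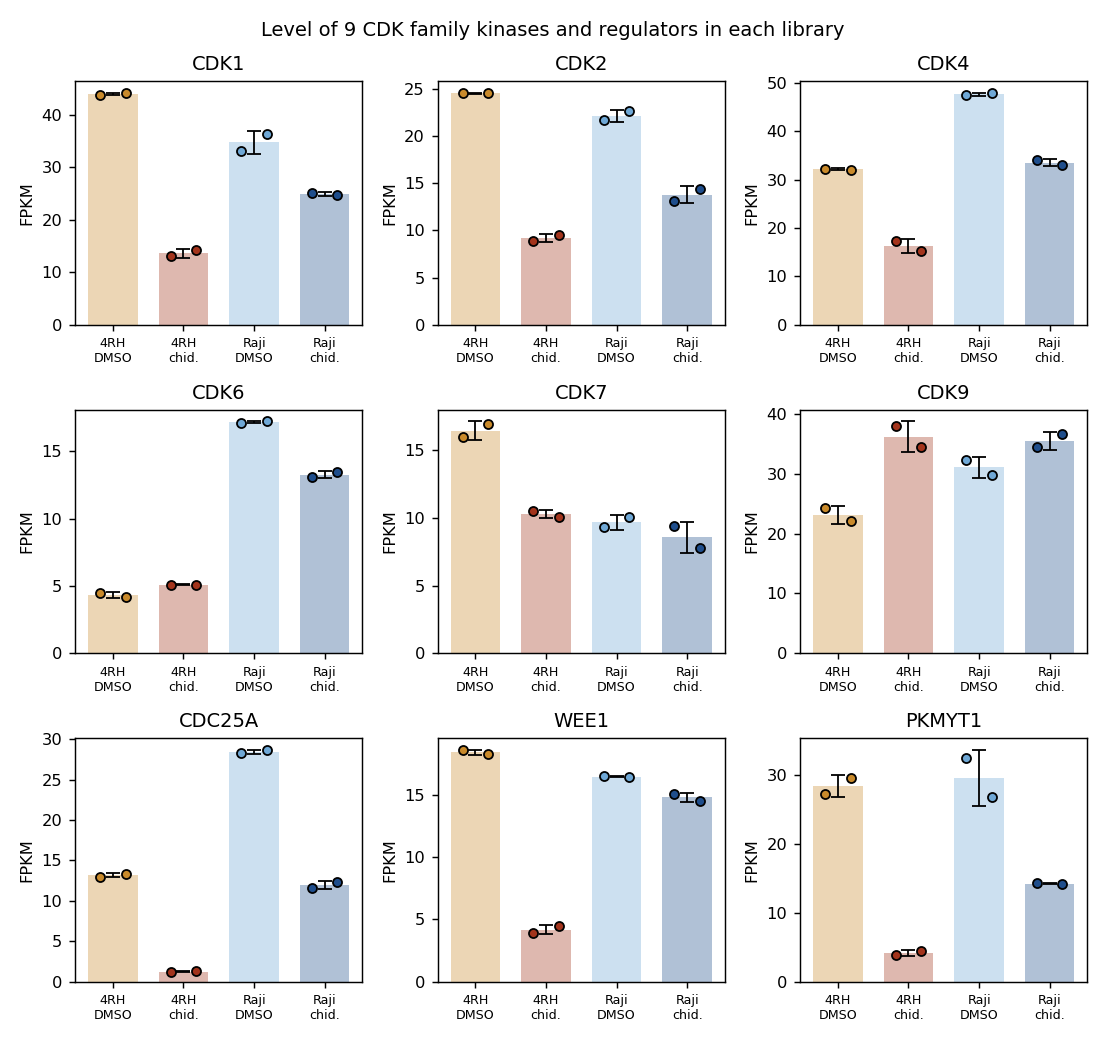
FPKM (vertical axis, linear from 0, own scale per panel) of the 9 genes in Raji-4RH (4RH) and Raji cells with DMSO or chidamide (chid.). Bars are means, error bars are SD (n = 2) and points are single libraries; CDC25A reaches 1.24 FPKM in Raji-4RH chidamide, while WEE1 in Raji stays at 14.8 FPKM with chidamide against 16.5 FPKM with DMSO.

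CDK1, the mitotic kinase (chr10:60778331-60794852, plus strand), had levels of 43.8 and 44.2 FPKM in Raji-4RH with DMSO and of 13.04 and 14.2 FPKM with chidamide. In Raji it had 33.2 and 36.3 FPKM with DMSO and 25.2 and 24.7 FPKM with chidamide. CDK1 was thus higher in Raji-4RH than in Raji before treatment and lower after it. It fell by 1.62 on the log2 scale in Raji-4RH (adjusted p = 1.5e-07, limma) and by 0.46 in Raji (adjusted p = 3.3e-04). CDK2, the S phase kinase (chr12:55966769-55972784, plus strand), went from 24.5 and 24.6 FPKM to 8.90 and 9.54 FPKM in Raji-4RH. In Raji it went from 21.7 and 22.6 FPKM to 13.1 and 14.4 FPKM. The DMSO libraries of both lines were within 21.7 to 24.6 FPKM, and every chidamide library was below them. The log2 fold change was -1.32 in Raji-4RH (adjusted p = 3.7e-07, limma) and -0.65 in Raji (adjusted p = 4.6e-05). CDK2 shares 14.5% of its exon bases with an antisense gene and 2.29% with PMEL on the opposite strand. PMEL rose from 0.332 to 6.34 FPKM in Raji-4RH, the opposite direction to CDK2. Reads in the bases that CDK2 shares with these genes cannot be assigned to 1 gene either.

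CDK4, the G1 kinase of D-type cyclins (chr12:57747727-57756013, minus strand), was at 32.3 and 32.0 FPKM in Raji-4RH with DMSO and at 17.3 and 15.2 FPKM with chidamide. The Raji libraries were at 47.4 and 47.9 FPKM with DMSO and at 34.0 and 32.9 FPKM with chidamide, so that treated Raji cells had slightly more CDK4 mRNA than untreated Raji-4RH cells. CDK4 fell by 0.94 on the log2 scale in Raji-4RH (adjusted p = 2.7e-06, limma) and by 0.50 in Raji (adjusted p = 2.3e-04). TSPAN31, on the opposite strand, covers 43.2% of the exon bases of CDK4. Its own level was low, with means from 1.61 to 3.25 FPKM over the 4 groups. The strand setting of the counting is not given, so reads in the shared bases cannot be assigned to 1 gene. The part of this overlap in the CDK4 values was not tested.

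CDK6, the other G1 kinase of D-type cyclins (chr7:92604921-92836594, minus strand), did not follow CDK4 in Raji-4RH but fell like CDK4 in Raji. In Raji-4RH it was at 4.51 and 4.195 FPKM with DMSO and at 5.11 and 5.07 FPKM with chidamide. In Raji it was at 17.1 and 17.2 FPKM with DMSO and at 13.1 and 13.5 FPKM with chidamide. All 4 Raji-4RH libraries were therefore far below all 4 Raji libraries. CDK6 fell by 0.35 on the log2 scale in Raji (adjusted p = 6.9e-04, limma). In Raji-4RH its log2 fold change was 0.19 (adjusted p = 0.0121), a call that was lost after quantile normalization (0.0065, adjusted p = 0.926), with median-centred libraries (0.11, adjusted p = 0.0900), in a fit of the Raji-4RH libraries alone (adjusted p = 0.0563) and without Raji-4RH DMSO replicate 2 (0.15, adjusted p = 0.0931).

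CDK7 and CDK9 have roles in transcription, and moved in opposite directions in Raji-4RH. CDK7 (chr5:69234795-69277430, plus strand) was at 15.9 and 16.9 FPKM in Raji-4RH with DMSO and at 10.5 and 10.0 FPKM with chidamide. Raji gave 9.29 and 10.1 FPKM with DMSO and 9.36 and 7.75 FPKM with chidamide, and these libraries overlapped. CDK7 fell by 0.63 on the log2 scale in Raji-4RH (adjusted p = 1.8e-04, limma), to a level near that of Raji. In Raji its log2 fold change was -0.16 (95% interval from -0.36 to 0.031, adjusted p = 0.129). It depended on the treated Raji libraries, at -0.29 without Raji chidamide replicate 1 (adjusted p = 0.0257) and -0.042 without replicate 2 (adjusted p = 0.715). A second label with the symbol CDK7 lay outside the placed rows and was not used.

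CDK9 (chr9:127785679-127790787, plus strand) rose with chidamide in Raji-4RH. Raji-4RH cells held 24.2 and 22.1 FPKM with DMSO and 38.0 and 34.4 FPKM with chidamide. The Raji libraries were at 32.3 and 29.9 FPKM with DMSO and at 34.4 and 36.6 FPKM with chidamide. Treated Raji-4RH cells thus reached the range of Raji cells. The log2 fold change was 0.62 in Raji-4RH (adjusted p = 7.8e-05, limma). In Raji it was 0.19 (95% interval from 0.018 to 0.36, adjusted p = 0.0556), and it was called after quantile normalization (adjusted p = 0.0170), in voom (0.0350), in a fit of the Raji libraries alone (0.0371) and without either Raji-4RH chidamide library (0.0201 and 0.0196).

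Counted together, all 9 genes passed an adjusted p of 0.05 in Raji-4RH, 7 lower and 2 higher with chidamide. In the same comparison 74.9% of the 10710 genes passed, 43.3% higher and 31.6% lower, so that a call alone sets these genes little apart from the rest. With a log2 fold change of -1 or lower required as well, 5 of the 9 genes were called (CDC25A, PKMYT1, WEE1, CDK1 and CDK2), against 5.05% of all genes. The median log2 fold change was -1.32 over the 9 genes and 0.093 over all genes tested. The 9 genes were chosen with earlier results of these data known, so they are not an unselected set. In Raji 6 of the 9 genes were called, all lower, where 60% of all genes were called, 31.5% higher and 28.5% lower. CDC25A had a log2 fold change of -1 or lower there, as had 0.859% of all genes, and PKMYT1, at -0.9996, missed that limit by less than its standard error of 0.096. The median in Raji was -0.46 over the 9 genes and 0.017 over all genes tested. Quantile normalization moved the median of all genes in Raji-4RH from 0.093 to -0.022 and the split of calls from 4642 higher and 3380 lower to 3718 higher and 4057 lower. The 7 falls in Raji-4RH kept their direction and their call under every scaling tried.

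To ask whether the response differed between the lines, the effect in Raji was subtracted from the effect in Raji-4RH. All 9 genes were called in this interaction, 7 lower and 2 higher in Raji-4RH, where 48.8% of all genes were called, 27.2% higher and 21.7% lower. The difference of log2 fold changes was -1.76 for WEE1 (standard error 0.087, adjusted p = 5.5e-06, limma), -1.52 for PKMYT1 (adjusted p = 7.1e-05), -1.48 for CDC25A (adjusted p = 9.0e-06) and -1.16 for CDK1 (adjusted p = 3.3e-05). These 4 genes, both inhibitory kinases and the phosphatase that opposes them among them, had a difference of -1 or lower, as had 2.24% of all genes. The difference was smaller for CDK2 (-0.67, adjusted p = 4.5e-04), CDK7 (-0.46, adjusted p = 0.0133) and CDK4 (-0.44, adjusted p = 0.0043). It was positive for CDK6 (0.53, adjusted p = 7.3e-04) and CDK9 (0.44, adjusted p = 0.0093). The value of CDK7 lost its call without Raji-4RH DMSO replicate 2 (adjusted p = 0.0553) and without Raji DMSO replicate 1 (adjusted p = 0.0513). These differences rest on the same libraries as the 2 single-line comparisons and are not further evidence for them.

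**Figure D2:**
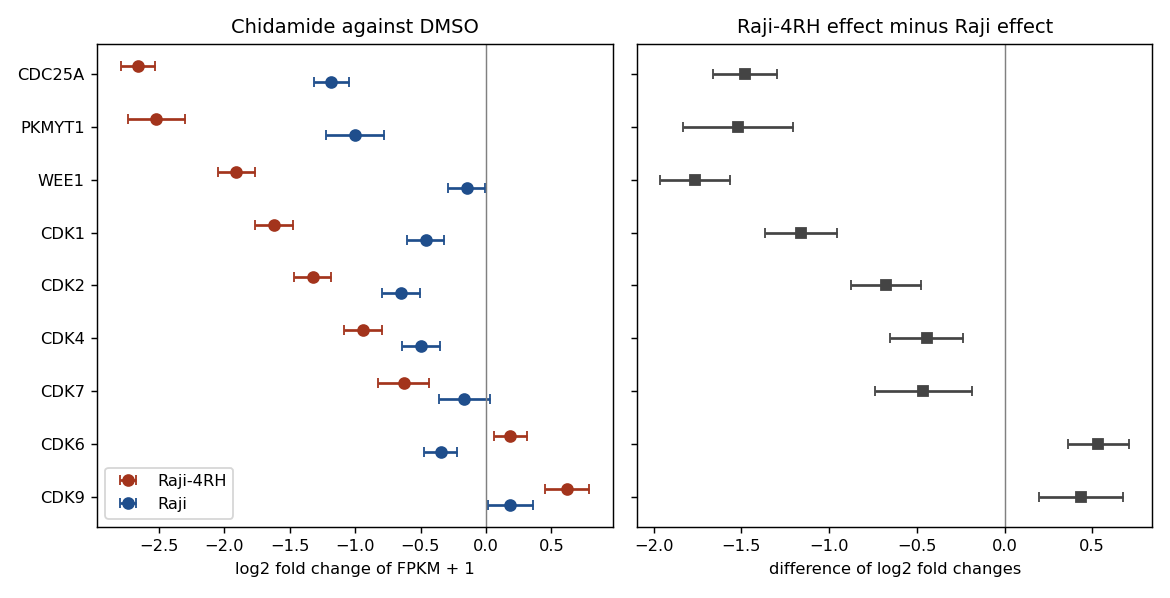
Left, log2 fold change of FPKM + 1 with chidamide against DMSO in Raji-4RH (red) and Raji (blue); right, the effect in Raji-4RH minus the effect in Raji, in log2 units. Points are limma estimates over 2 libraries per group and bars are 95% intervals; WEE1 lies at -1.91 in Raji-4RH and at -0.15 in Raji, and only CDK6 and CDK9 lie to the right of 0 in the right panel.

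Before treatment the 2 lines already differed in 6 of the 9 genes (limma, adjusted p under 0.05), where 73.6% of all genes differed, 41.2% higher and 32.4% lower in Raji-4RH. Compared with Raji, untreated Raji-4RH had a 3.95-fold lower mean of CDK6 (log2 fold change -1.76, adjusted p = 2.5e-08) and a 2.16-fold lower mean of CDC25A (-1.05, adjusted p = 6.4e-07). These were the 2 genes with a log2 fold change of -1 or lower, against 7.37% of all genes. CDK4 (-0.55, adjusted p = 6.9e-05) and CDK9 (-0.41, adjusted p = 0.0011) were also lower in Raji-4RH. CDK7 (0.71, adjusted p = 9.1e-05) and CDK1 (0.33, adjusted p = 0.0013) were higher. CDK2 (0.14, 95% interval from 0.0014 to 0.28), WEE1 (0.15, interval from 0.011 to 0.29) and PKMYT1 (-0.051, interval from -0.27 to 0.17) did not pass, with adjusted p of 0.0640, 0.0514 and 0.651. The value of CDK2 was called in voom, in a fit of the DMSO libraries alone and without either Raji-4RH chidamide library (adjusted p from 0.0272 to 0.0450), and that of WEE1 in these fits and after quantile normalization (from 0.0128 to 0.0416).

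With chidamide in both lines, 8 of the 9 genes differed between Raji-4RH and Raji, 7 lower and 1 higher in Raji-4RH, and 79.3% of all genes differed, 44.3% higher and 35% lower. CDC25A was 9.65-fold lower in mean FPKM in Raji-4RH (log2 fold change -2.53, adjusted p = 4.2e-09, limma), WEE1 3.54-fold (-1.61), PKMYT1 3.44-fold (-1.57) and CDK6 2.61-fold lower (-1.23). Over all genes, 7.93% were called with a log2 fold change of -1 or lower. WEE1 and PKMYT1, which had not passed between the untreated lines, were thus among the genes furthest apart after treatment. CDK4 (-0.998), CDK1 (-0.83) and CDK2 (-0.53) were lower by less. CDK7 was higher in Raji-4RH (0.24, adjusted p = 0.0271), and this call was lost with median-centred libraries (adjusted p = 0.116), in a fit of the chidamide libraries alone (0.0626), and without Raji-4RH chidamide replicate 1 (0.0749) or Raji chidamide replicate 2 (0.12, adjusted p = 0.221). CDK9 was not called (0.027, 95% interval from -0.14 to 0.20, adjusted p = 0.748), but after quantile normalization it was called higher in Raji-4RH (0.20, adjusted p = 0.0412).

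The order of the levels also shifted between the groups. In Raji DMSO the mean FPKM ran from CDK4 (47.6) over CDK1 (34.7), CDK9 (31.1), PKMYT1 (29.6), CDC25A (28.5), CDK2 (22.2), CDK6 (17.2) and WEE1 (16.5) to CDK7 (9.68), and the libraries of CDK9 overlapped with those of PKMYT1, and PKMYT1 with CDC25A. In Raji-4RH chidamide it ran from CDK9 (36.2) over CDK4 (16.3), CDK1 (13.6), CDK7 (10.3), CDK2 (9.22), CDK6 (5.09), WEE1 (4.18) and PKMYT1 (4.15) to CDC25A (1.24), with WEE1 and PKMYT1 overlapping. CDK9, a kinase of transcription, thus led in treated Raji-4RH cells, ahead of the G1 kinase CDK4. In Raji chidamide the means were 35.5 for CDK9 and 33.4 for CDK4, and in Raji-4RH DMSO CDK1 led with 44.0.

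The summed level of the 4 cell cycle CDKs (CDK1, CDK2, CDK4 and CDK6) was 105 FPKM in both Raji-4RH libraries with DMSO and 44.4 and 44.1 FPKM in those with chidamide. In Raji the sum was 119 and 124 FPKM with DMSO and 85.4 and 85.5 FPKM with chidamide. CDK6 made up 4.29% and 3.997% of that sum in Raji-4RH DMSO and 11.5% in each Raji-4RH chidamide library. In Raji its share was 14.3% and 13.9% with DMSO and 15.3% and 15.8% with chidamide. The CDK4 to CDK6 ratio was 7.16 and 7.63 in Raji-4RH with DMSO, 3.39 and 3.00 with chidamide and between 2.44 and 2.78 in the 4 Raji libraries. These sums and ratios are descriptions of the same values, and no test was made on them.

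**Figure D3:**
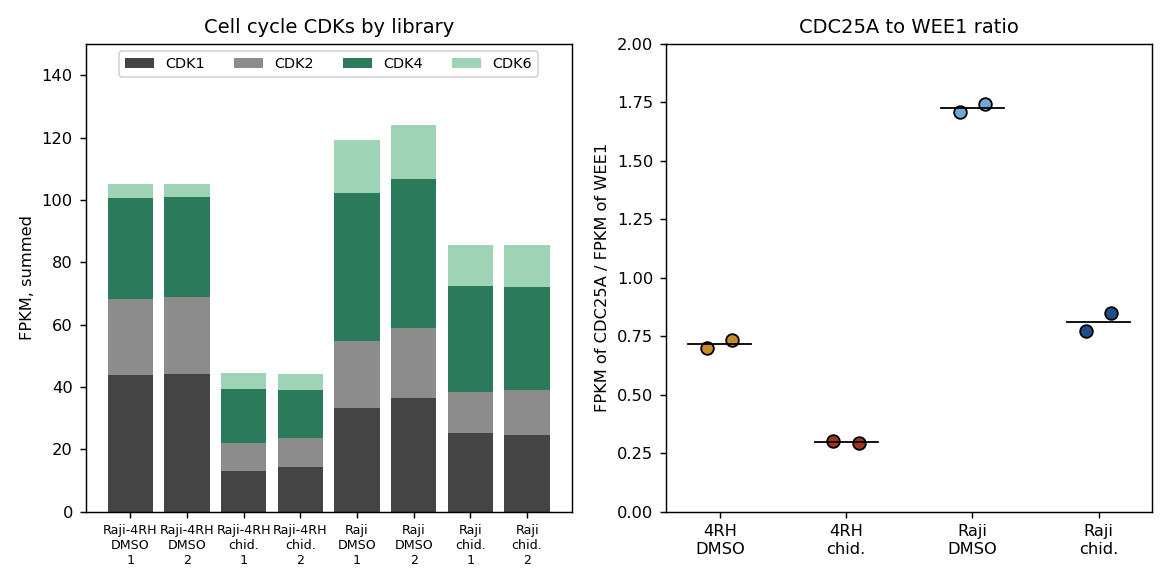
Left, FPKM of CDK1, CDK2, CDK4 and CDK6 stacked from 0 in each of the 8 libraries; right, the ratio of CDC25A FPKM to WEE1 FPKM, where points are libraries and lines are group means (chid., chidamide; 4RH, Raji-4RH). The CDK6 segment is thinnest in Raji-4RH DMSO, at 3.997% to 4.29% of the sum, and the CDC25A to WEE1 ratio runs from 1.73 in Raji DMSO to 0.298 in Raji-4RH chidamide.

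CDC25A and WEE1 act on the same phosphates in opposite directions. The ratio of their FPKM in Raji was 1.71 and 1.74 with DMSO and 0.772 and 0.850 with chidamide. In Raji-4RH it was 0.699 and 0.732 with DMSO and 0.302 and 0.293 with chidamide. Untreated Raji-4RH cells therefore had a ratio just below that of treated Raji cells. The ratio of WEE1 and PKMYT1 together to CDC25A was 1.73 and 1.51 in untreated and 2.53 and 2.33 in treated Raji cells, and 3.53 and 3.58 in untreated and 6.58 and 6.81 in treated Raji-4RH cells. The mean ratio of WEE1 to PKMYT1 was 0.561 in untreated Raji and 0.649 in untreated Raji-4RH, and near parity with chidamide, at 1.04 in Raji and 1.01 in Raji-4RH. These are ratios of mRNA, and protein or phosphorylation was not measured in these libraries.

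Genes that work with the 9 genes were examined in 5 lists. Over all genes tested, the median was 0.093 in Raji-4RH and 0.017 in Raji, and the shares called higher and lower were 43.3% and 31.6% in Raji-4RH and 31.5% and 28.5% in Raji. Of 12 cyclins, 10 were tested, and 1 rose and 7 fell in Raji-4RH (median log2 fold change -0.96), while none rose and 5 fell in Raji (-0.15). The single rise in Raji-4RH was that of CCND1, from 0.057 to 0.335 FPKM, and was lost after quantile normalization. CCND1 thus stayed under 1 FPKM in that line. CCNA2, the cyclin of CDK2 and CDK1, fell from 46.6 to 8.96 FPKM in Raji-4RH (-2.26, adjusted p = 3.8e-08, limma) and from 66.3 to 28.5 FPKM in Raji (-1.19). CCNB1, the mitotic cyclin of CDK1, fell from 80.1 to 29.1 FPKM in Raji-4RH (-1.43) and from 35.7 to 23.5 FPKM in Raji (-0.59). CCNE1 and CCNE2, the E cyclins of CDK2, are named here after their values were seen. They fell in Raji-4RH by 1.45 and 1.19 on the log2 scale, against -0.013 and 0.037 in Raji, with interaction values of -1.43 and -1.22 (adjusted p = 2.7e-05 and 5.2e-05).

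Of 19 regulators of the inhibitory phosphorylation, 18 were tested, of which 2 rose and 13 fell in Raji-4RH (median -0.52), and 3 rose and 9 fell in Raji (-0.21, or 2 and 13 with median-centred libraries), beside 31.6% of all genes called lower in Raji-4RH and 28.5% in Raji. CHEK1, the checkpoint kinase that phosphorylates CDC25A and marks it for degradation, fell from 14.3 to 2.52 FPKM in Raji-4RH (-2.12, adjusted p = 3.6e-08, limma) and from 13.5 to 7.43 FPKM in Raji (-0.78). CLSPN, the adaptor claspin that CHEK1 needs for its activation, fell from 20.2 to 3.43 FPKM in Raji-4RH (-2.26) and from 15.7 to 7.92 FPKM in Raji (-0.91). ATM, the kinase of the DNA break response, rose in both lines (0.39 and 0.40). FBXW11, an F-box protein of the ligase that degrades CDC25A and WEE1, also rose in both (0.29 in Raji-4RH and 0.67 in Raji). The other CDC25 phosphatases changed less than CDC25A (named after their values were seen), with -0.48 for CDC25B and -0.67 for CDC25C in Raji-4RH, both called, and -0.21 and -0.26 in Raji, where CDC25C was not called (adjusted p = 0.0755).

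Of the 11 subunits and regulators of CAK and P-TEFb, 7 rose and 3 fell in Raji-4RH (median 0.38), where 43.3% and 31.6% of all genes did, and 5 rose and 2 fell in Raji (0.15, or 5 and 4 after quantile normalization), where 31.5% and 28.5% did. HEXIM1, which holds P-TEFb inactive, rose from 10.1 to 48.2 FPKM in Raji-4RH (2.13, adjusted p = 9.2e-07, limma) and from 8.53 to 22.2 FPKM in Raji (1.28). AFF1, a scaffold of the super elongation complex that contains P-TEFb, rose from 2.08 to 8.39 FPKM in Raji-4RH (1.61) and from 1.66 to 7.92 FPKM in Raji (1.75). LARP7, a protein of the 7SK particle that stores inactive P-TEFb, fell by 0.24 and 0.23 on the log2 scale, and GTF2H1, a TFIIH subunit, fell by 0.46 and 0.23.

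Of 19 other CDK family kinases, 13 were tested, of which 7 rose and 3 fell in Raji-4RH (median 0.26), and 5 rose and 3 fell in Raji (0.014). Over all genes 43.3% rose and 31.6% fell in Raji-4RH, and 31.5% and 28.5% in Raji, and after quantile normalization the split of the list was 5 to 4 in Raji-4RH and 4 to 4 in Raji. CDK18 rose from 0.068 to 6.41 FPKM in Raji-4RH (2.79, adjusted p = 7.1e-08, limma) and from 4.91 to 13.5 FPKM in Raji (1.30). CDK14, a kinase linked to Wnt signalling, went in opposite directions, from 11.7 to 19.4 FPKM in Raji-4RH (0.68) and from 15.8 to 11.2 FPKM in Raji (-0.47), with an interaction value of 1.15 (adjusted p = 3.7e-05). CDK17 rose in both lines (0.47 in Raji-4RH and 0.69 in Raji). CDK12, a kinase of RNA polymerase II, fell in both lines (-0.48 and -0.37), as did CDK5 (-0.39 and -0.20).

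Of 14 CDK inhibitors and other CDK-binding proteins, 12 were tested, of which 4 rose and 6 fell in Raji-4RH (median -0.14), and 5 rose and 4 fell in Raji (0.079), beside 43.3% and 31.6% of all genes in Raji-4RH and 31.5% and 28.5% in Raji. CDKN1A, which encodes p21, rose from 30.7 to 165 FPKM in Raji-4RH (2.39, adjusted p = 4.3e-08, limma) and from 10.4 to 51.5 FPKM in Raji (2.20), and its interaction value of 0.19 did not pass (95% interval from -0.029 to 0.41, adjusted p = 0.133). CDKN1B, which encodes p27, rose by 1.41 and 1.25 on the log2 scale. CKS1B, the small CDK-binding subunit, fell from 58.2 to 20.3 FPKM in Raji-4RH (-1.48) and from 58.1 to 34.2 FPKM in Raji (-0.75). CDK2AP1, a CDK2-binding protein, fell by 1.49 and 0.74.

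**Figure D4:**
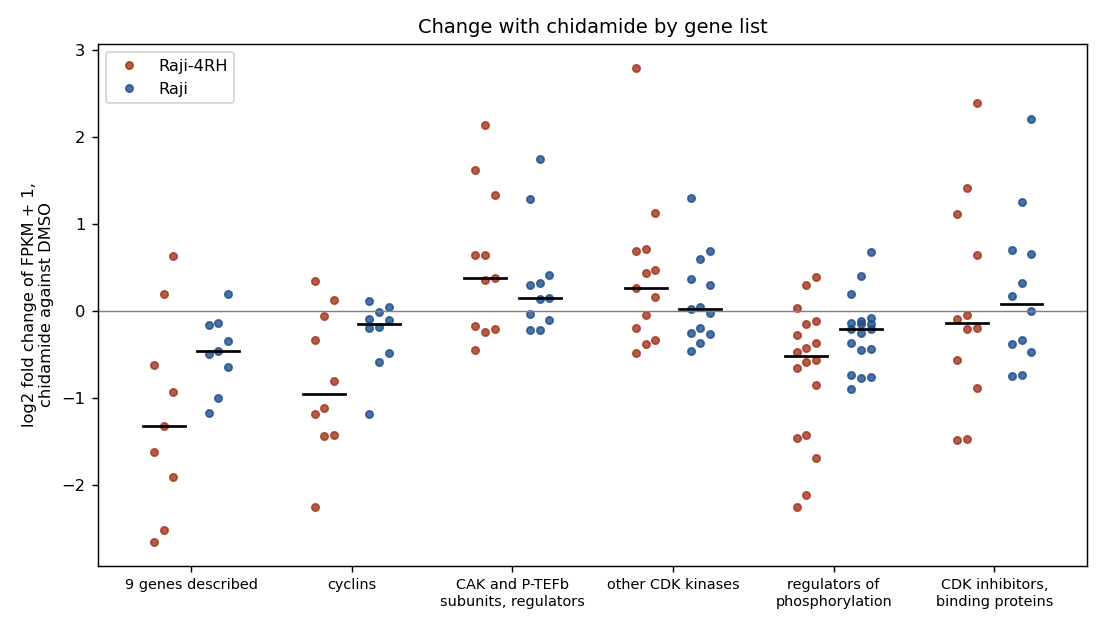
Log2 fold change of FPKM + 1 with chidamide against DMSO for the tested genes of 6 lists in Raji-4RH (red) and Raji (blue), 1 point per gene, with a black line at each median. The medians of the 9 genes lie at -1.32 and -0.46, those of the cyclins at -0.96 and -0.15, and those of the CAK and P-TEFb genes above 0, at 0.38 and 0.15.

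For each of the 9 genes, the genes with the most similar pattern over the 8 libraries were found by the root mean square difference of centred log2(FPKM + 1) values, among the 6614 that averaged 5 FPKM or more. NCAPD3 was nearest to CDK1, at a difference of 0.035, SSRP1 to CDK2 (0.040) and SNRPA1 to CDK4 (0.043). WEE1 was nearest to RECQL4 (0.12), MCM3 (0.14) and BUB1B (0.15), and PKMYT1 to MCM5 (0.11), TONSL (0.12) and WDR62 (0.13). CDC25A stood further from its neighbours than the other genes did, with MCM4 at 0.26, E2F2 at 0.34 and FOXM1 at 0.36. MCM4 went from 76.5 to 9.06 FPKM in Raji-4RH and from 111 to 42.9 FPKM in Raji. CDK6 was nearest to KANK2 (0.065), which was at 5.56 and 7.04 FPKM in Raji-4RH and at 21.4 and 16.3 FPKM in Raji. CDK7 was nearest to MRPL47 (0.074) and CDK9 to ATG4C (0.055). The next 2 genes were DCLRE1B and RANGAP1 for CDK1, SPAG5 and PA2G4 for CDK2, TIMM13 and ELP6 for CDK4, ZNF589 and FAM241A for CDK6, PTPN11 and ZNF692 for CDK7, and RPL28 and OAZ1 for CDK9. With 8 libraries in 4 groups these likenesses describe the group means, and they say nothing of shared control.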

How the data were processed

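RNA-seq of 8 libraries was analyzed (NEBNext Ultra kit, Illumina HiSeq X). The authors deposited FPKM values with gene lengths and Ensembl IDs. The submitters' processing notes name HISAT2 2.0.5, SAMtools 1.7, HTSeq 0.9.1, DESeq2 1.22.2 and hg38/GRCh38. The annotation release and the strand setting are not given in the sources used here. FPKM times length and library total gave whole reads for 100% of non-zero values (tolerance 0.01). The 63967 labels face 63305 rows of values, since the last 662 rows repeat the first 662. Values were therefore moved by segment of the table and rescaled by the ratio of lengths, which placed 18143 labels and 90.7% to 93.2% of reads, and labels in other rows were not used. Shifts and segments were those of an earlier analysis of these data, checked here on gene families.

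The 10710 genes that reached 1 FPKM in 2 or more libraries were fitted by limma 3.58.1 in R 4.3.3 (trend, log2(FPKM + 1), 4 groups, 4 residual degrees of freedom), with Benjamini-Hochberg adjustment over all genes. Genes were called at an adjusted p under 0.05. The script was tested on simulated data that, unlike these, had the same spread in all groups and few changed genes. An exact permutation test of 2 against 2 libraries cannot give a two-sided p under 0.333, so no such test was run. Replicates differed by more than sampling noise (chi-square per gene between 1.77 and 13.5, highest in Raji-4RH chidamide and lowest in Raji chidamide). The fit shares the spread of a gene over the 4 groups. P-values within Raji therefore rest also on the spread of the Raji-4RH libraries, and the reverse. Alternatives were a pseudocount of 0.1, no filter, a filter on the mean (1 FPKM), quantile normalization, median-centred libraries, no trend, voom on the recovered reads, a fit of the compared libraries alone, a replicate block, a minimum log2 fold change of 1, each library left out in turn, and the rows as deposited. Named genes are the 9 members, from each list up to 2 called rises and 2 called falls per line (largest change, mean of 5 FPKM or more, no overlap), and 3 nearest patterns per member. Members, lists and tests were chosen with earlier results of these data known. Gene positions and exon overlaps are from GENCODE v29. Python 3.11.15 with pandas 2.3.3, numpy 2.4.6 and matplotlib 3.10.9 was used.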

Additional observations from a re-analysis of the deposited data

Results flagged for a closer look

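The effect of chidamide differed between Raji-4RH and Raji for all 9 genes by the interaction term of limma, where 48.8% of all genes differed. Subtracting the log2 fold change in Raji from that in Raji-4RH gave -1.76 for WEE1, -1.52 for PKMYT1, -1.48 for CDC25A, -1.16 for CDK1, -0.67 for CDK2, -0.46 for CDK7 and -0.44 for CDK4. The value was 0.53 for CDK6 and 0.44 for CDK9. For CDK6 the estimated change had opposite signs in the 2 lines, 0.19 in Raji-4RH and -0.35 in Raji. For the other 8 genes the signs were the same and the size differed.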

How the results depend on the processing

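The falls of CDC25A, PKMYT1, WEE1, CDK1, CDK2, CDK4 and CDK7 and the rise of CDK9 in Raji-4RH kept their call and direction under all 17 alternatives on the placed values. Without 1 library, CDC25A in Raji-4RH ranged from -2.70 to -2.62 and WEE1 from -1.98 to -1.83. With a log2 fold change of at least 1 required, the genes called were 5 in Raji-4RH, 1 in Raji, 4 in the interaction, 2 between the untreated and 4 between the treated lines. Among values under the threshold, PKMYT1 between the untreated lines ranged from -0.19 to 0.085 over the fits without 1 library, turning to 0.0053 without Raji-4RH DMSO replicate 1 and to 0.085 without Raji DMSO replicate 1. CDK9 between the treated lines was called higher after quantile normalization (0.20, adjusted p = 0.0412), turned to -0.053 with median-centred libraries, and over the fits without 1 library ranged from -0.044 to 0.098, turning to -0.044 without Raji-4RH chidamide replicate 1 and to -0.016 without Raji chidamide replicate 1. Called cyclins in Raji ranged from 3 to 6 and called CAK and P-TEFb genes in Raji from 4 to 8 over the fits without 1 library. The 3 came without Raji DMSO replicate 2 and the 4 without Raji chidamide replicate 2. With no filter, 7077 genes were called higher in Raji-4RH in place of 4642, and 7120 in place of 4746 between the treated lines, with more genes tested. In the rows as deposited, where the values beside these labels belong to other genes by the placing used here, CDK1 stood at 0.12, CDK9 at -0.40 and WEE1 at 0.61 in Raji-4RH, and CDK9 at -0.32 in Raji. Those rows gave interaction values of 0.20 for CDK1, -0.077 for CDK9, 0.29 for CDC25A and 0.62 for WEE1, 0.087 for CDK9 between the untreated lines, and 0.58 for CDK1 and 0.65 for WEE1 between the treated lines, while CDK4 gave no value there. Deviations of same-numbered libraries were weakly correlated between groups (between -0.279 and 0.166), which cannot show whether those libraries were made as pairs. A replicate block kept 9 genes called in Raji-4RH, 6 in Raji and 9 in the interaction, with 4583 higher and 3303 lower over all genes in Raji-4RH. The cause of the other shifts was not tested. Only 2 libraries per group and 68 to 99 reads for CDC25A in Raji-4RH chidamide limit the precision.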
